A study of Homo sapiens with 4 samples.

Results

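The genes described here are the leucine-rich repeat receptors LGR4, LGR5 and LGR6, their secreted ligands RSPO1, RSPO2, RSPO3 and RSPO4 (the R-spondins), and RNF43 and ZNRF3, the membrane ubiquitin ligases on which these receptors act. They were taken by name, through the RefSeq accession that each probe carries, and not by any measured value. Of the 9 listed genes, 8 had probes matched by accession, out of 17217 named genes on the array. ZNRF3 had no matched accession and was not analysed here. Each of the 8 genes had 1 target with 3 probes, which gave 24 probes and, on 4 arrays, 96 probe values.

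The RNA came from HEK293, an established human embryonic kidney line transformed with adenovirus DNA and much used to express cloned receptors. All 4 samples belonged to 1 untreated group, grown to confluence in medium with serum and antibiotics, with a plate and an RNA extraction for each. There was no second condition, so the question put to every gene was whether its message rose above a detection baseline on these arrays. Each sample had its own array, and the number of arrays limits the precision of every value below.

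As background, Wnt proteins signal by bringing a Frizzled receptor together with the co-receptor LRP5 or LRP6, which stabilises beta-catenin. RNF43 and ZNRF3 mark Frizzled receptors for removal from the cell surface and so dampen the pathway. An R-spondin bound to an LGR receptor and to a ligase at the same time clears the ligase from the membrane, and the Wnt receptors accumulate. LGR5 is best known as a marker of the stem cells of intestinal crypts and is itself a Wnt target gene, as are RNF43 and ZNRF3, while LGR4 is expressed more widely.

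HEK293 cells contained message for LGR5, LGR4 and RNF43, whereas LGR6, RSPO1, RSPO2 and RSPO3 lay well below the baseline and RSPO4 lay near it. Under the lower baselines described further on, LGR6, RSPO1, RSPO2 and RSPO3 stayed below but lay closer. The baseline of an array was the mean plus 2 SD of the seminal genes that the study took as silent in this line. The study took the mean itself as zero expression, so the baseline is a threshold above that level. A gene under it is not thereby shown to be without message. It stood at 9.47, 9.94, 10.69 and 10.32 log2 units on replicates 1 to 4. A gene's distance is its log2 level minus that baseline, and a gene was counted as detected where the mean distance over the 4 arrays was above 0. By this rule 3 of 8 genes were detected, against 52.7% of all named genes. The median distance was -1.48 log2 units over the 8 genes and 0.26 over all named genes. Each value is a mean over a whole culture, in which fewer cells with a message and less RNA per cell cannot be told apart.

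Other calls on the same baseline gave 2 or 3 genes. LGR4 and LGR5 lay above the baseline on all 4 arrays, as did 45% of named genes. A one-sided limma test of the distance against 0, adjusted over all 17217 genes, called LGR4, LGR5 and RNF43, beside 45.9% of named genes, and its trended, robust form again called 3 beside 44.9%. The limma fit gave every gene the same standard error of 0.35 log2 units, so its p-values do not use a gene's own spread between arrays. The distances of LGR4 and RNF43 had SDs of 0.95 and 0.88, against a median SD of 0.63 over all named genes. For these genes the limma p-values thus rest on a smaller spread than their own. With 4 arrays the smallest p of an exact sign-flip test, one-sided, is 0.0625, so no single gene can pass 0.05 in it.

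**Figure D1:**
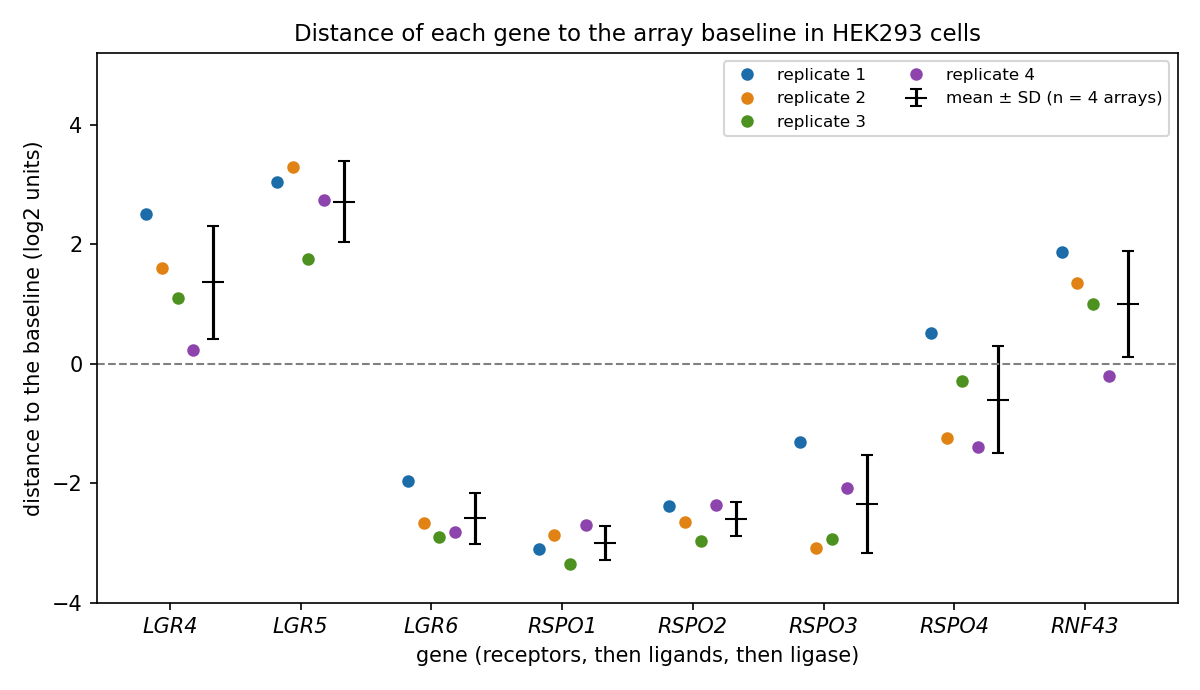
Distance to the baseline (log2 units, y axis) of the 8 measured genes (x axis), with 1 point per array coloured by replicate and the mean ± SD of the 4 arrays beside them. LGR5 and LGR4 lie above 0 on all 4 arrays, RNF43 on 3, RSPO4 on 1, and the other 4 genes on none.

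Among the receptors, LGR5 had the largest distance of the 8 genes. Its level was 12.52, 13.23, 12.44 and 13.06 log2 units on replicates 1 to 4. These levels lay 3.05, 3.30, 1.75 and 2.74 above the baselines, a mean distance of 2.71 ± 0.68 (SD, n = 4; limma adjusted p = 3.0e-14, exact sign-flip p = 0.0625). The level was higher on replicates 2 and 4 than on replicates 1 and 3. All 12 of its probe values were above the baseline, the nearest of them, probe 1886 on replicate 3, by 1.13. No other gene of the set had all its probes above the baseline.

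LGR4, the widely expressed member of the family, was detected with a wider spread. Its level was 11.98, 11.53, 11.79 and 10.55 on replicates 1 to 4, and its distances were 2.51, 1.60, 1.10 and 0.23. The mean distance was 1.36 ± 0.95 (SD, n = 4; limma adjusted p = 1.4e-04, exact sign-flip p = 0.0625). Replicate 4 was the lowest and stood 0.23 log2 units clear of the baseline. On the pair of arrays made of replicates 1 and 2 the mean distance was 2.05, and on replicates 3 and 4 it was 0.67, where the limma test no longer passed (adjusted p = 0.105).

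The probes of LGR4 did not behave alike. Probes 4123 and 4573, named here by the number that ends the probe name, were above the baseline on all 4 arrays, with mean levels of 11.93 and 12.06. Probe 5115 was below it on all 4, with levels from 5.79 on replicate 2 to 8.42 on replicate 3. The mean levels of the 3 probes spanned 4.98 log2 units, more than in 96.5% of targets with 3 probes, whose median span was 1.44. The low probe was higher on replicates 3 and 4, the arrays on which the lower quartile of all probes stood at 7.37 rather than 6.77, and the part of that shift in its values was not tested. Without probe 5115 the mean distance of LGR4 rose to 1.91 ± 0.99, and with the mean of the log2 probe values, which weights a low probe more, it was 0.59 (limma adjusted p = 0.114).

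LGR6, the third receptor, was not detected. Its level was 7.50, 7.26, 7.80 and 7.50 log2 units on replicates 1 to 4, with distances of -1.97, -2.67, -2.89 and -2.82. The mean distance was -2.59 ± 0.42 (SD, n = 4), and 0 of its 12 probe values exceeded the baseline. Its mean level lay within the range of the olfactory receptor genes, which serve as a second set of genes not thought to be active in this line, and 26 of 364 of those stood as high or higher. LGR5 and LGR4 stood above all 364.

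The receptors closest to the LGRs in build, those for the glycoprotein hormones and for relaxin, gave 0 of 5 detected, beside 52.7% of all named genes. Their mean distances ran from -3.61 to -3.26, each of them lower than that of LGR6, and none was above the baseline on any array.

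The R-spondins gave 0 of 4 detected genes, beside 52.7% of all named genes. RSPO1 was the lowest of the set, with levels of 6.37, 7.07, 7.33 and 7.62 on replicates 1 to 4 and a mean distance of -3.00 ± 0.29 (SD, n = 4). RSPO2 had levels of 7.08, 7.28, 7.72 and 7.96 and a mean distance of -2.59 ± 0.28 (SD, n = 4). For both of them all 12 probe values were under the baseline, and the distances on the 4 arrays lay closer together than for any other gene of the set. On these arrays 57 of 364 olfactory receptor genes stood as high as RSPO1 or higher, and 26 as high as RSPO2.

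RSPO3 had levels of 8.15, 6.86, 7.76 and 8.25 log2 units on replicates 1 to 4 and a mean distance of -2.35 ± 0.82 (SD, n = 4). The spread came mostly from probe 1089, which read 9.41 and 9.43 on replicates 1 and 4 but 7.01 and 7.49 on replicates 2 and 3. On replicate 1 the distance of this probe was -0.05 log2 units, and no probe value of RSPO3 exceeded it. Without that probe the distance was -3.14 ± 0.30.

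RSPO4 was the R-spondin nearest the baseline. Its level was 9.98 and 10.40 on replicates 1 and 3 and 8.70 and 8.92 on replicates 2 and 4, so the arrays that were high for LGR5 were low for RSPO4. Its distances on replicates 1 to 4 were 0.51, -1.24, -0.29 and -1.40, a mean of -0.60 ± 0.89 (SD, n = 4), which is within the spread between arrays. The signal was that of a single probe. Probe 2098 read 11.42, 10.03, 11.55 and 10.03 and was above the baseline on 3 of 4 arrays, whereas probes 1584 and 2597 averaged 7.16 and 7.99 and were never above it. Without probe 2098 the mean distance was -2.47 ± 0.69, close to the other R-spondins. With all 3 probes, 1 of 364 olfactory receptor genes stood as high as RSPO4.

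**Figure D2:**
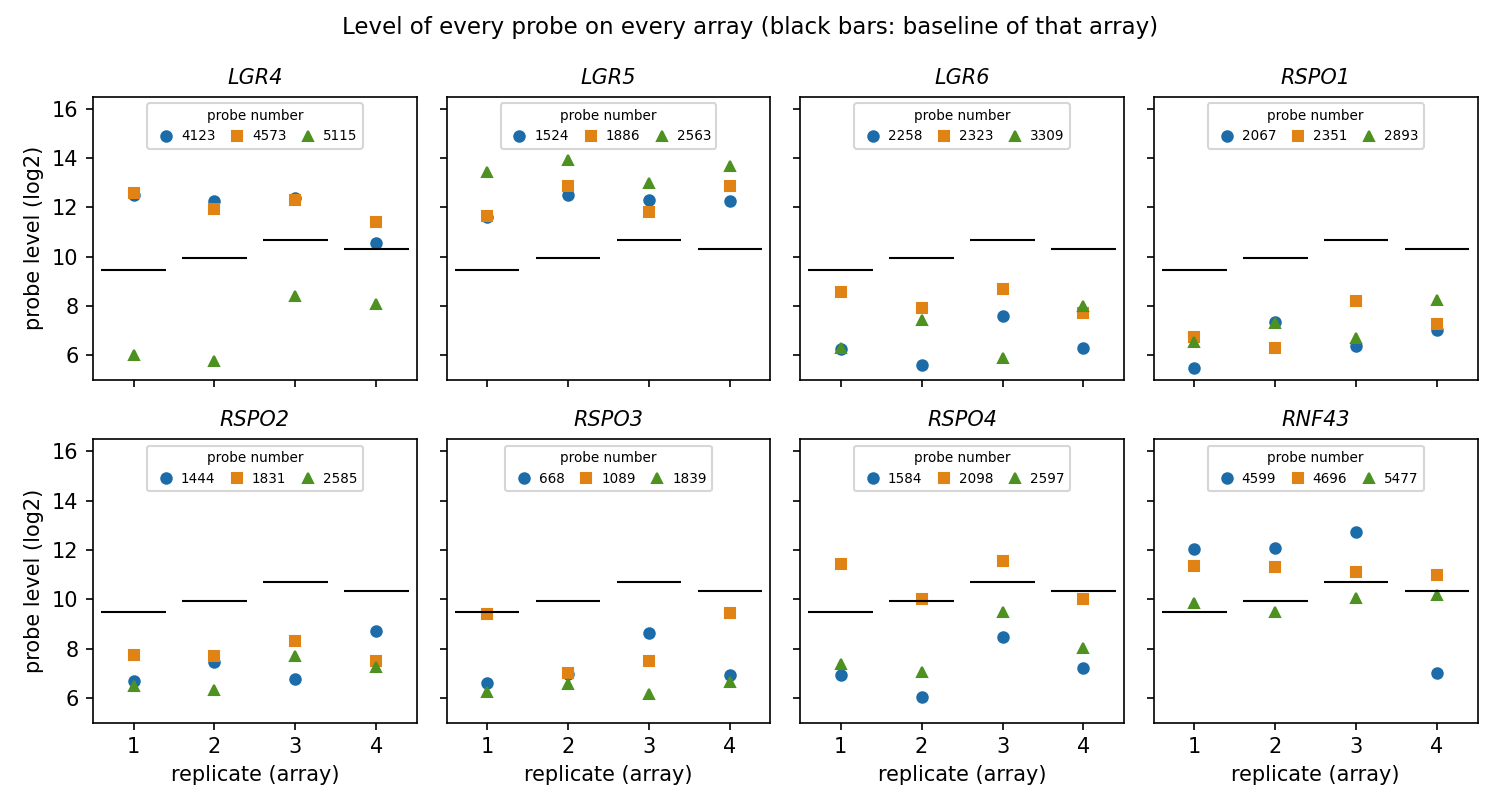
Level of each probe (log2 units, y axis) on each array (replicate, x axis), with 1 panel per gene, 1 symbol per probe and a black bar at the baseline of each array. The 3 LGR5 probes stay above the bars, probe 5115 of LGR4 and 2 of the 3 RSPO4 probes stay below them, and probe 4599 of RNF43 reads 7.00 on replicate 4 after 12.05 to 12.71 on the other arrays.

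RNF43, the ligase that was measured, was detected on average but not on every array. Its level was 11.33, 11.29, 11.69 and 10.11 log2 units on replicates 1 to 4, and its distances were 1.86, 1.36, 1.00 and -0.21. The mean distance was 1.00 ± 0.88 (SD, n = 4; limma adjusted p = 0.0051, exact sign-flip p = 0.125). As for LGR4, replicate 4 was the lowest. The mean distance was 1.61 on replicates 1 and 2 and 0.40 on replicates 3 and 4, the latter with a limma adjusted p of 0.355.

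The low value of RNF43 on replicate 4 belonged to 1 of its 3 probes. Probe 4599 read 12.05, 12.07 and 12.71 on replicates 1 to 3 and 7.00 on replicate 4, a gap of 5.04 log2 units. A gap of at least 4 between the lowest array and the next was found in 197 of 71998 probes (0.274%), with replicate 4 the low array in 40 of them. Probe 4696 was above the baseline on all 4 arrays, at 11.34, 11.31, 11.09 and 10.99, and its levels had an SD of 0.17. Probe 5477 lay about the baseline, above it on 1 of 4 arrays. With probe 4599 left out, the distances became 1.31, 0.72, -0.03 and 0.31, so that replicate 4 passed to the upper side and replicate 3 to the lower, and the mean of 0.58 ± 0.58 no longer passed the limma test (adjusted p = 0.106). With the median of the log2 probe values it was 1.00 (limma adjusted p = 0.016).

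In order of mean distance the genes ran LGR5, LGR4, RNF43, RSPO4, RSPO3, LGR6, RSPO2 and RSPO1. Every pair of neighbours in this order had ranges that overlapped over the 4 arrays, but compared within each array 5 of the 7 pairs kept this order on all 4. The exceptions were RSPO3 with LGR6 and LGR6 with RSPO2, each in this order on 2 of 4 arrays. LGR5 exceeded LGR4 by 1.35 with an SD of the difference of 0.93, and RNF43 exceeded RSPO4 by 1.61 with an SD of 0.66. The mean of LGR4 was 0.36 above that of RNF43 with an SD of 0.24, and LGR6 and RSPO2 differed by 0.0048 with an SD of the difference of 0.36. On replicates 1 and 2 the mean distances were 3.17 for LGR5, -0.36 for RSPO4, -2.20 for RSPO3, -2.32 for LGR6, -2.52 for RSPO2 and -2.98 for RSPO1. On replicates 3 and 4 they were 2.25 for LGR5, -0.84 for RSPO4, -2.50 for RSPO3, -2.86 for LGR6, -2.67 for RSPO2 and -3.03 for RSPO1. All 8 distances, with LGR4 and RNF43 as given above, were lower on the latter pair. The baseline was higher there, at 10.69 and 10.32 against 9.47 and 9.94 on replicates 1 and 2. The levels themselves averaged lower on the latter pair for LGR4, LGR5 and RNF43 but higher for LGR6 and the R-spondins. For LGR4 and RNF43 replicate 4 was the low array, at 10.55 and 10.11, while replicate 3 stood at 11.79 and 11.69. Each probe has its own affinity, so the order of genes is not an order of transcript numbers.

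The count of detected genes moved with the baseline. With the baseline raised to 3 SD, 2 of 8 genes were detected, beside 39.1% of named genes. LGR4 then stood at 0.04 and RNF43 at -0.31. Lower baselines gave 4 of 8 genes by adding RSPO4, beside 64.3% of named genes with 1 SD, 67.7% with the median and median absolute deviation of the controls, 71.4% with controls taken from the olfactory receptors and 74% once SPATA5 and SPATA13 were dropped. The seminal gene SPATA5 (now AFG2A) had a mean level of 9.97 and SPATA13 of 9.72, while the other 8 controls averaged 6.53 to 7.25. LGR6, RSPO1, RSPO2 and RSPO3 stayed under the baseline in each of these settings, but closer to it in the lower ones. Once SPATA5 and SPATA13 were dropped, RSPO3 stood at -0.02 log2 units, LGR6 at -0.26, RSPO2 at -0.27 and RSPO1 at -0.68. With olfactory controls, 46 of the 96 probe values exceeded the baseline, compared with 31 of 96 in the main setting. The share of all probe values on the array above each baseline was not computed, so neither count can be called high or low.

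**Figure D3:**
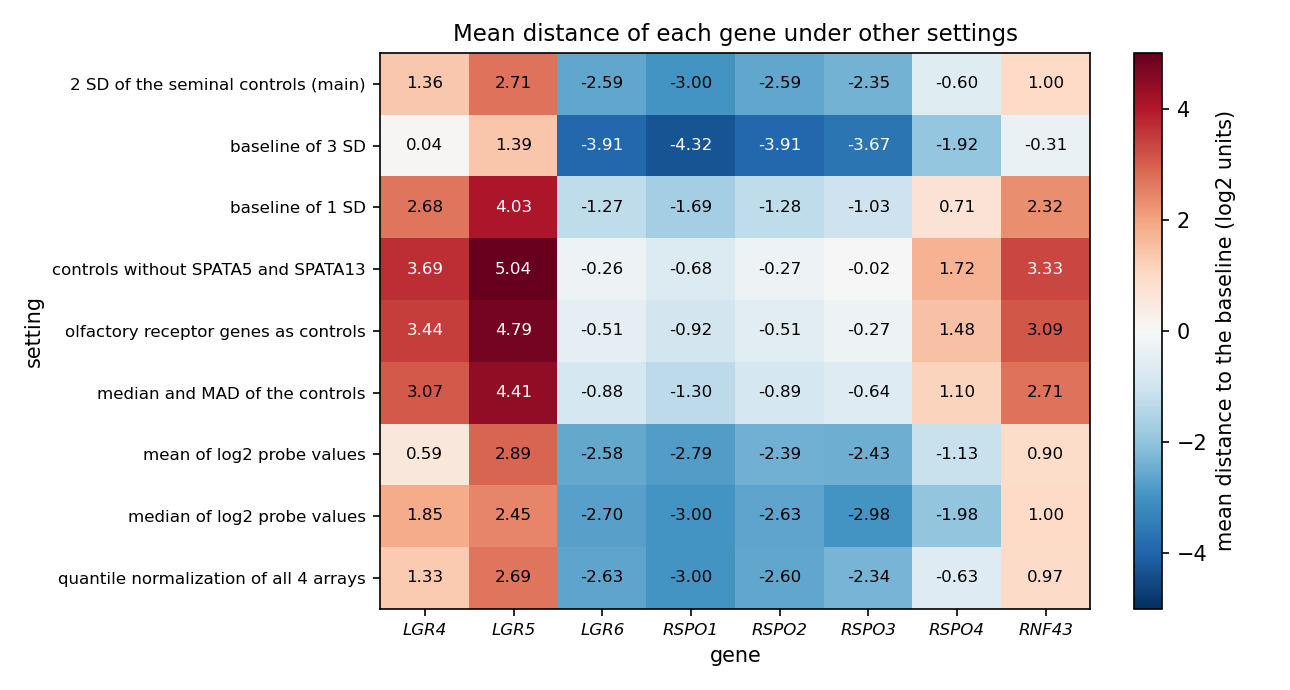
Mean distance to the baseline (log2 units, colour and printed value) of the 8 genes (columns) under the main setting and 8 other settings of the baseline, the probe summary and the normalization (rows). LGR5 and LGR4 are above 0 in all 9 rows, RNF43 in all but the 3 SD row, RSPO4 in 4 rows, and the other 4 genes in none.

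Other genes of the pathway were counted from lists, 10 in all, that were written with earlier results of these data known. Together they held 123 measured genes besides the 8, of which 62 (50.4%) were detected, close to the 52.7% of all named genes, with a median distance of 0.10 log2 units. The count ran from 46 with a baseline of 3 SD to 91 without SPATA5 and SPATA13, as the share of all named genes rose from 39.1% to 74%. Shares differed from list to list, and no test was made of any list.

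The Wnt receptors came next, a list that holds the Frizzled receptors on which RNF43 and ZNRF3 act and other receptors besides. Of 16 Wnt receptors and co-receptors 11 were detected (68.8%, against 52.7% of all named genes), with a median distance of 1.07. On all 4 arrays 9 were above the baseline, as were 45% of named genes. The co-receptor LRP6 stood at 3.63 ± 0.25 and its relative LRP5 at 1.74 ± 0.82 (SD, n = 4 for each). Among the Frizzled receptors FZD7, FZD6, FZD1, FZD4 and FZD3 were detected, at 1.91 down to 0.78, while FZD2, FZD8, FZD9, FZD5 and FZD10 were below the baseline on all 4 arrays, at -1.21 down to -2.81. The other Wnt receptors with large distances were PTK7, a kinase-like co-receptor, at 3.33 ± 0.45, ROR1 at 2.91 ± 0.87 and RYK at 2.30 ± 0.85 (SD, n = 4 for each).

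RNF43 and ZNRF3 belong to a family of membrane ligases with a protease-associated domain outside and a RING domain inside the cell. Of 9 other members of this family 6 were detected (66.7%, against 52.7% of all named genes), with a median distance of 1.29. RNF167 stood at 4.92 ± 0.67, RNF130 at 4.45 ± 0.53 and RNF128 at 3.28 ± 0.48 (SD, n = 4 for each), and no array fell below the baseline for any of them.

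Heparan sulfate proteoglycans, which can bind R-spondins at the cell surface, gave 6 of 10 detected genes with a median distance of 0.80. That share of 60% is near the 52.7% of all named genes. The glypicans GPC3 and GPC4 stood at 4.47 ± 0.78 and 2.67 ± 0.50, and the syndecans SDC4 and SDC1 at 1.74 ± 0.63 and 1.68 ± 0.79 (SD, n = 4 for each). GPC6 stood at 1.40 ± 0.20. For these 5 genes all 4 arrays were above the baseline.

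The lists of Wnt ligands and of Wnt antagonists, not all of whose genes code for secreted proteins, had medians below the baseline. Wnt ligands with their processing factors gave 5 of 21 genes (23.8%, against 52.7% of all named genes), with a median distance of -2.27. These included PORCN, the enzyme that attaches lipid to Wnt proteins, at 1.78 ± 0.56, WLS, which carries them to the surface, at 2.65 ± 1.03, and the ligand WNT5B at 1.45 ± 0.43 (SD, n = 4 for each). PORCN and WLS are not themselves ligands. The ligands WNT5A and WNT10B, named after their values were seen, stood at 0.52 and 0.10, each above the baseline on 3 of 4 arrays. Secreted and membrane antagonists gave 3 of 16 genes (18.8%), with a median of -2.28. They were led by SFRP1 at 1.29 ± 0.73 and APCDD1 at 0.90 ± 0.66 (SD, n = 4 for each). Leaving out replicate 3 raised the count of antagonists from 3 to 5. A baseline of 3 SD gave 0 antagonists and 3 ligands or processing factors, and dropping SPATA5 and SPATA13 gave 8 and 12.

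Inside the cell most of the pathway was detected. Dishevelled and the beta-catenin destruction complex gave 14 of 17 genes (82.4%, against 52.7% of all named genes). All 14 were above the baseline on every array, as were 45% of named genes. APC, APC2 and AMER1, named after their values were seen, were below the baseline on all 4 arrays, at -1.03, -1.99 and -0.83. GSK3A stood at 4.74 ± 0.34, CSNK1E at 4.39 ± 0.56 and DVL3 at 3.85 ± 0.62 (SD, n = 4 for each). Beta-catenin, its TCF partners and cofactors that activate or inhibit them gave 9 of 10 (90%). CTNNB1 stood at 4.93 ± 0.52, TCF7L2 at 3.77 ± 0.19 and TCF7L1 at 3.36 ± 0.60 (SD, n = 4 for each). Genes known as Wnt targets in other tissues gave 7 of 14 (50%, near the 52.7% of all named genes), with a median distance of 0.11. The largest were MYC at 4.45 ± 1.13 and CCND1 at 3.48 ± 0.79 (SD, n = 4 for each). Next came TCF7 at 2.19 ± 1.00 and LEF1 at 2.15 ± 1.03, which are on the preceding list too, and CD44 at 1.92 ± 0.89. The 7 targets that were not detected were below the baseline on all 4 arrays. Among the feedback genes of the pathway, named after their values were seen, AXIN2 stood at 1.33 ± 0.76 and above the baseline on all 4 arrays, whereas NKD1 stood at -0.54, NKD2 at -1.69, DKK1 at -2.86, NOTUM at -2.96 and SP5 at -3.44.

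**Figure D4:**
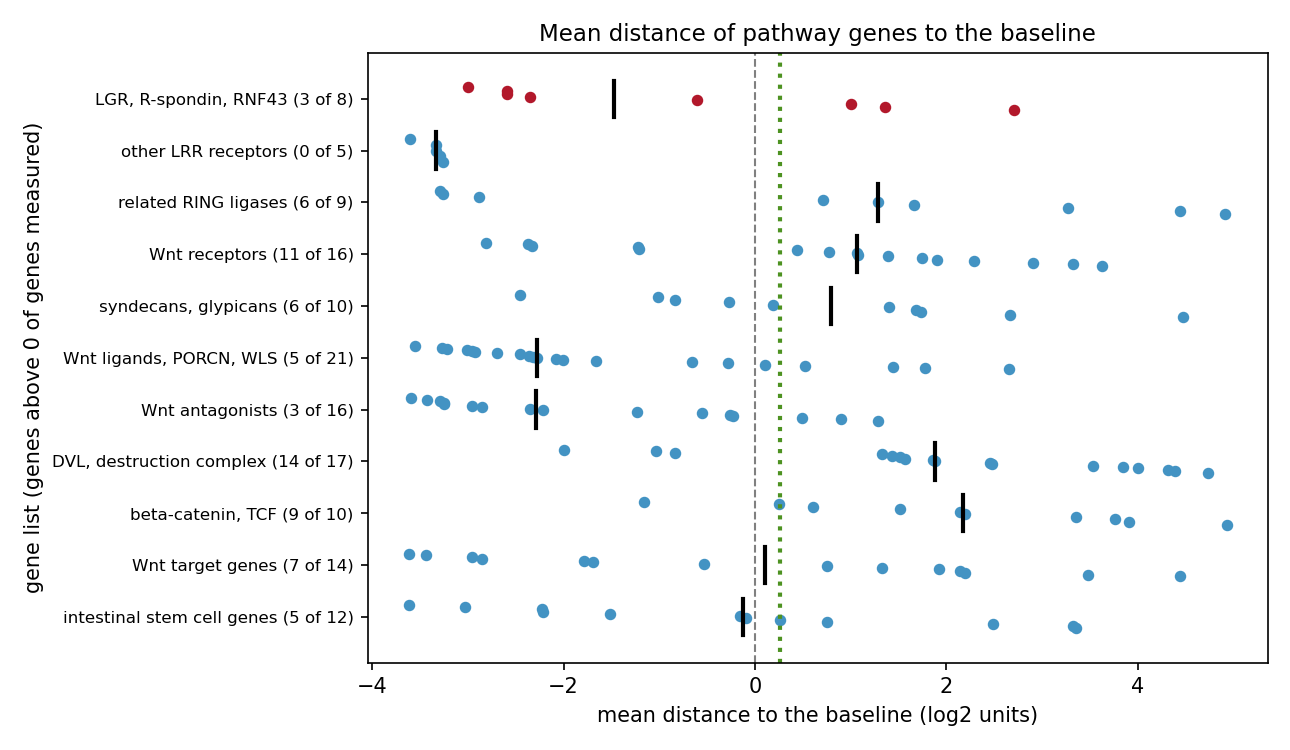
Mean over the 4 arrays of the distance to the baseline (log2 units, x axis) of the 8 genes (red) and of the genes of 10 pathway lists (blue), 1 point per gene, with a black bar at each list's median, a dashed line at the baseline and a dotted line at the median of all named genes. The 8 genes have a median of -1.48, between the lists inside the cell (1.88 and 2.17) and the related leucine-rich repeat receptors (-3.33).

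As a check of the labels, all 20 widely used reference genes were detected. Kidney epithelial genes gave 3 of 14, namely KRT8, EPCAM and KRT18, and the kidney transcription factors PAX2 and PAX8, named after their values were seen, were below the baseline on every array. Neuronal genes gave 6 of 10 (60%, near the 52.7% of all named genes), 5 of them on all 4 arrays. They were led by NEFL at 4.01 ± 0.56 (SD, n = 4). SNAP25, ELAVL4 and STMN2, named after their values were seen, were below the baseline on all 4 arrays. Markers of other cell types gave 1 of 8 for fibroblasts, 2 of 8 for endothelium and 2 of 8 for leukocytes, where LCP1 and CD68 were detected and the pan-leukocyte gene PTPRC, also named after its value was seen, was not. The share of all named genes above the baseline was 58.1%, 54.2%, 47.4% and 50.2% on replicates 1 to 4, and 4, 3, 3 and 2 of the 8 genes were above it on the same arrays.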

How the data were processed

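Messenger RNA was measured in 4 HEK293 samples on single-colour NimbleGen arrays designed on HG18. The authors deposited log2 probe intensities. Their methods give scanning, extraction with NimbleScan and a log2 transform, and the labels name RMA without saying where it was used. Ranked probe by probe, replicates 1 and 2 differed by no more than 0.01 at 99.97% of positions and replicates 3 and 4 at 99.99%. Each pair thus shares a distribution, and values within each pair are given.

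Probe accessions (24000 targets, 71998 probes) were looked up, versions dropped, in a table of RefSeq genes on GRCh38.p14. It was used for names only and named 19125 targets for 17217 genes. A target was log2 of the mean of its linear probe values, and a gene the mean of its targets. Of 11 seminal controls 10 were matched. The limma fit was first tried on simulated data with the same spread for every gene and independent arrays. That trial could not show how the fit behaves with unequal spreads or with shifts shared by an array. Distances were then tested against 0, one-sided, with limma 3.58 in R 4.3 across all genes with Benjamini-Hochberg adjustment at 0.05. The prior degrees of freedom were infinite, so 1 standard error served all genes, and the error of the baseline itself did not enter. A baseline shift moves all genes of an array together. Labels call the samples biological replicates.

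Named genes were the 8 members, control genes, Frizzled receptors, LRP5 and LRP6, and from each list at most 5 genes that exceeded the baseline on all 4 arrays, taken by largest distance. Genes named outside this rule are marked as such in the text. The members and lists were chosen with earlier results of these data known. Genes were not ranked by likeness of pattern, since 4 arrays are too few for a correlation. Alternatives changed the baseline, probe summary, normalization, arrays and test.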

Additional observations from a re-analysis of the deposited data

Results flagged for a closer look

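The 8 distances, the 8 levels and the 24 probe levels were searched for a lone array. Its gap to the nearest other array, divided by the range of the 4, had to pass the 95% limit of Dixon's test. Of these 40 values 2 passed it, and chance alone marks about 1 in 20. RNF43 probe 4599 read 7.00 on replicate 4 against 12.05 to 12.71 elsewhere, which gave a ratio of 0.883. LGR4 probe 4123 read 10.55 on replicate 4 against 12.27 to 12.52 elsewhere, which gave 0.871. Replicate 4 was the low array in both, and the cause was not tested. The other probes of these genes that lay near or above the baseline did not show a fall of that size on replicate 4, with 11.41 for LGR4 probe 4573 and 10.99 for RNF43 probe 4696.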

How the results depend on the processing

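Over 21 alternatives for each gene, LGR5, LGR6, RSPO1, RSPO2 and RSPO3 held both sign and call in all 21, LGR4 in 18, RNF43 in 16 and RSPO4 in 16. LGR4 lost significance at 0.042 with a baseline of 3 SD (limma adjusted p = 1), at 0.59 with the mean of the log2 probe values and at 0.67 on replicates 3 and 4 alone. RNF43 turned negative, at -0.31, with 3 SD, and lost significance at 0.40 on replicates 3 and 4 alone, at 0.57 on replicates 2 and 4 alone and at 0.58 without probe 4599, an alternative chosen after the values were seen. RSPO4 turned positive at 0.71 with 1 SD, 1.72 without SPATA5 and SPATA13, 1.48 with olfactory controls, 1.10 with the median and median absolute deviation, and 0.11 on replicates 1 and 3 alone. Leaving out each replicate in turn gave 2.51 to 3.03 for LGR5, 0.98 to 1.74 for LGR4, 0.72 to 1.41 for RNF43 and -0.98 to -0.34 for RSPO4. Without replicate 2 RNF43 stood at 0.88 (limma adjusted p = 0.0502). The cause was not tested for any of these. The number of detected genes was 3 without any 1 replicate, and the pathway genes detected were then 60 to 64 of 123. Other baselines moved the latter further, to 46 with 3 SD, 79 with 1 SD, 82 with the median and median absolute deviation, 86 with olfactory controls and 91 without SPATA5 and SPATA13. Signal over background on single spots was not examined, because no raw intensities were used here.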

Other observations

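LGR5 is known from the stem cells of intestinal crypts, and a list of 12 genes linked with those cells was set against the baseline. Of these, 5 were detected (41.7%, against 52.7% of all named genes), 4 of them on all 4 arrays. LRIG1, a restrainer of growth factor receptors, stood at 3.36 ± 0.43, the chromatin repressor BMI1 at 3.32 ± 1.13, the RNA-binding protein MSI1 at 2.49 ± 0.88 and the ephrin receptor EPHB2 at 0.75 ± 0.63 log2 units (SD, n = 4 for each). OLFM4, ASCL2 and SMOC2, named after their values were seen, were below the baseline on all 4 arrays.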
